A study of Mus musculus with 3 samples.

Results

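MicroRNA-101 (miR-101) is made in the mouse from the hairpins miR-101a and miR-101b, which lie on different chromosomes and release near-identical 3p microRNAs. The 4 mature products, mmu-miR-101a-3p, mmu-miR-101a-5p, mmu-miR-101b-3p and mmu-miR-101b-5p, were followed through 3 small RNA libraries of mouse liver. They are 4 of the 1908 mature microRNAs listed in the read count files. The products were chosen by name, and also on measured values, since the 3p products were known to be higher after ischemia and lower after reperfusion. Their levels and fold changes are therefore given as descriptions with counting error, and no test was made on them.

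The mice were C57BL/6J males, an inbred strain, 8 to 10 weeks old, and liver tissue was used from each group. The Sham group had a laparotomy with no vascular occlusion, and its livers were taken after a wait of 90 min. In the warm ischemia (WI) group the vessels of the left and median lobes were clamped for 90 min. The ischemia-reperfusion (IR) group had the same clamping followed by 120 min of restored flow, so its livers were taken later after surgery than those of the other groups, and reperfusion and time since surgery cannot be told apart. The study placed several mice in each group. Each group is 1 library, and whether RNA of several mice was pooled is not given in the sources used here.

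A microRNA hairpin is cut into an arm from its 5′ side (5p) and an arm from its 3′ side (3p), and usually one of them is loaded into the silencing complex while the other is degraded. The loaded arm finds messenger RNAs mainly through its seed, bases 2 to 8, and represses them. MiR-101 is best known as a repressor of Ezh2, the enzyme that places the silencing mark on histone H3 lysine 27, and is often low in liver cancer.

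The mature sequences are shown 5′ to 3′ because the comparison of the paralogs depends on how far their reads can be told apart. Capitals mark the seed, and the letters are from RefSeq (GRCm38.p6), which held all 4 products.
mmu-miR-101a-3p: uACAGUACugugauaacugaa
mmu-miR-101b-3p: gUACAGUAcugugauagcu
mmu-miR-101a-5p: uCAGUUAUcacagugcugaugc
mmu-miR-101b-5p: uCGGUUAUcaugguaccgaugcu
mmu-miR-101c: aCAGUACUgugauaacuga
mmu-miR-144-3p: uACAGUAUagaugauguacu

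The listed miR-101b-3p starts 1 base before miR-101a-3p. Their listed seeds are therefore shifted against each other by 1 base, and no other of the 1679 mature sequences in the RefSeq table had either seed. Over the 18 bases that both 3p products cover, they differ at 1 position, A16G, counted from the first base of miR-101a-3p. Read from the hairpin over all 21 bases of miR-101a-3p, miR-101b has the same single difference. A read of 15 bases that starts where miR-101a-3p starts, which is the shortest length the authors kept, would end before that position and fit both loci. The 5p arms differ at 5 of the 22 positions they share. MiR-144-3p, from a red blood cell hairpin, shares the first 7 bases of miR-101a-3p and departs from it at C8U.

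The whole hairpins, with both mature arms in capitals, show the same relation between loci. Both were found unchanged at the annotated positions in NCBIM37 (mm9), the build named in the methods of the study for small RNA reads.
Mir101a: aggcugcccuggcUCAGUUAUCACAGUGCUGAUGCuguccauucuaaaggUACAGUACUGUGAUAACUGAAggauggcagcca
Mir101b: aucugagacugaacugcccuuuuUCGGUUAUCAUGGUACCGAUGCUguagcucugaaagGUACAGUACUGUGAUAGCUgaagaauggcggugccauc

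The Mir101a hairpin is annotated at chr4:101019550-101019632 on the minus strand, inside exon 2 of E130102H24Rik, a non-coding transcript of 2 exons on the same strand. Mir101b is at chr19:29209769-29209865 on the plus strand, in the intron after exon 8 of the 9 exons of Rcl1, which encodes a protein of ribosomal RNA processing. The nearest Rcl1 exon lies 776 bases away. Each of the 4 member sequences had 1 exact match in the mm9 genome, inside its own hairpin. The 19 letters listed as miR-101c had 9, of which 1 lies inside miR-101a-3p and 8 on chromosome 9. The authors discarded reads with more than 5 genomic positions.

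The libraries held 3784539 to 5064014 microRNA reads, and 449 microRNAs had at least 10 reads over the 3 libraries. Read counts were scaled with the TMM factors of edgeR (0.961 to 1.03), which set the bulk of microRNAs equal between libraries, and are given per 1000000 scaled reads (CPM). A count of 3 reads, taken as the smallest that can be told from none, was 0.617 to 0.785 CPM. The hepatocyte marker miR-122-5p was the 11th or 12th most abundant microRNA in each library, and miR-192-5p the 1st. Intervals cover counting error only, since variation between animals was not measured and no molecular identifiers were used.

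**Figure D1:**
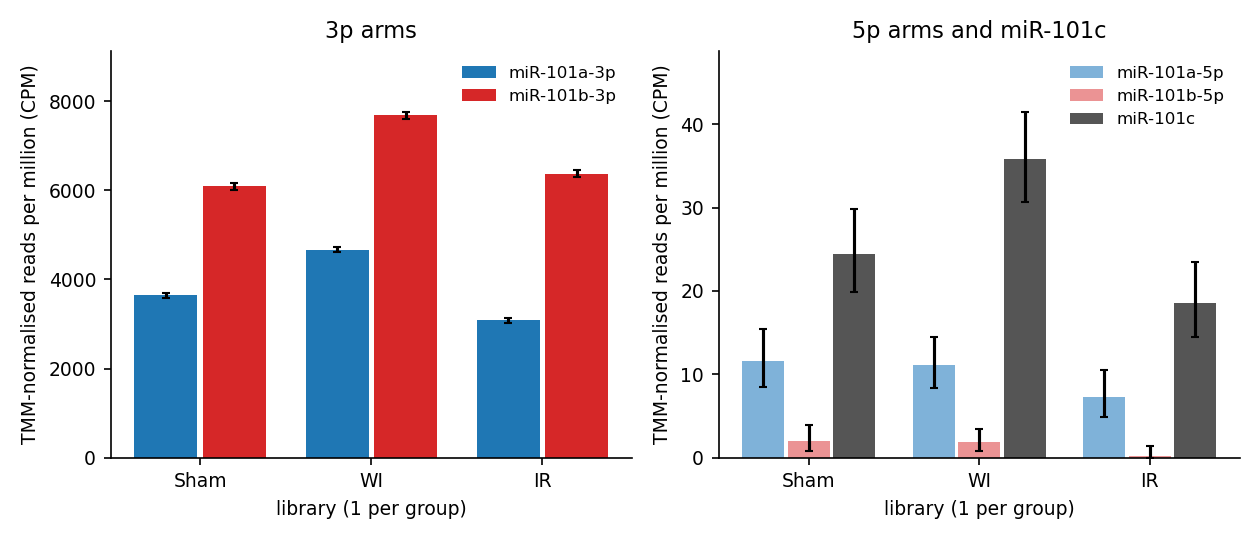
Levels of the miR-101 products in CPM after TMM scaling, for the 3p arms (left) and for the 5p arms and miR-101c (right, on a smaller scale). Bars are single libraries and error bars are exact 95% Poisson intervals of the read count; both 3p arms are highest in WI, and miR-101a-3p falls below its Sham level in IR while miR-101b-3p does not.

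MiR-101b-3p was the most abundant product. It was counted 24125 times in the Sham library, 37388 times in the WI library and 24374 times in the IR library, which is 6092, 7685 and 6374 CPM. These levels placed it at rank 23, 19 and 24 among all microRNAs of the library. The WI library was the highest, and Sham and IR lay close together with counting intervals that did not overlap (6015 to 6169 and 6294 to 6454 CPM).

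For miR-101a-3p the Sham library held 14442 reads, the WI library 22703 and the IR library 11812. This is 3647 CPM (95% interval 3588 to 3707), 4667 CPM (4606 to 4728) and 3089 CPM (3033 to 3145). WI was again the highest library, but here IR was below Sham. The ranks were 32, 27 and 32. As RNA of liver tissue holds many cell types, fewer cells of a type and less RNA per cell cannot be told apart.

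Together, the 3p products took a share of 1.0% of all counted reads of the Sham library, 1.19% of the WI library and 0.956% of the IR library. The log2 fold change of their summed level was 0.34 from Sham to WI and -0.38 from WI to IR, which left it at -0.04 relative to Sham.

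Warm ischemia was first compared with the sham operation. The difference was nearly the same for both loci. The log2 fold change was 0.36 (SE 0.0154) for miR-101a-3p and 0.34 (SE 0.0119) for miR-101b-3p, which are 1.28-fold and 1.26-fold. Neither 3p product passed the 1.5-fold threshold of the study. Of the 4 members, 0 were past it in the higher direction, where 10.5% of the 449 microRNAs were, and 0 in the lower direction, where 8.46% were. Among the 187 microRNAs with at least 100 reads in every library, 12 had a change as high as that of miR-101a-3p or higher and 15 one as high as that of miR-101b-3p, against a median change of 0.04 over the 187.

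Between WI and IR the loci parted. MiR-101a-3p was lower in IR by a log2 fold change of -0.60 (SE 0.0164), or 1.51-fold. For miR-101b-3p it was -0.27 (SE 0.0119), or 1.21-fold. Of the 187 well-counted microRNAs, 7 had a change as low as that of miR-101a-3p or lower (itself included), and 38 had one as low as that of miR-101b-3p. Of the members, 3 of 4 were past 1.5-fold lower in IR (both products of miR-101a and miR-101b-5p), where 16.0% of the 449 microRNAs were. In the higher direction 0 were past it, against 18.9% of the 449. The members were selected on this comparison, so nothing is read from these counts. The 5p arms among them had few reads in IR, 28 for miR-101a-5p and 1 for miR-101b-5p. MiR-101a-3p was also at the threshold itself and passed it with TMM or genome-aligned totals (-0.92), but not with DESeq2 size factors (-0.58), library totals (-0.52) or totals that leave out the 10 most abundant (-0.58). MiR-101a-5p likewise passed it with TMM or genome-aligned totals alone. MiR-101b-3p passed it with genome-aligned totals alone (-0.59, or 1.51-fold), a scaling that also moved the median of the 449 microRNAs to -0.34.

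IR was then compared with Sham, a comparison that uses the same IR library as that of IR with WI above. MiR-101a-3p was lower in IR by a log2 fold change of -0.24 (SE 0.0179), and miR-101b-3p was higher by 0.07 (SE 0.0131). The sign of the miR-101a-3p difference was the same under all 5 scalings, from -0.24 to -0.41. That of miR-101b-3p was not, since the log2 fold change was 0.001 when the totals left out the 10 most abundant and -0.10 with genome-aligned totals. Of the 4 members, 2 were past 1.5-fold lower in IR, both of them 5p arms with few reads, where 9.8% of the 449 microRNAs were. Past it in the higher direction were 0 members, against 18.0% of the 449.

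**Figure D2:**
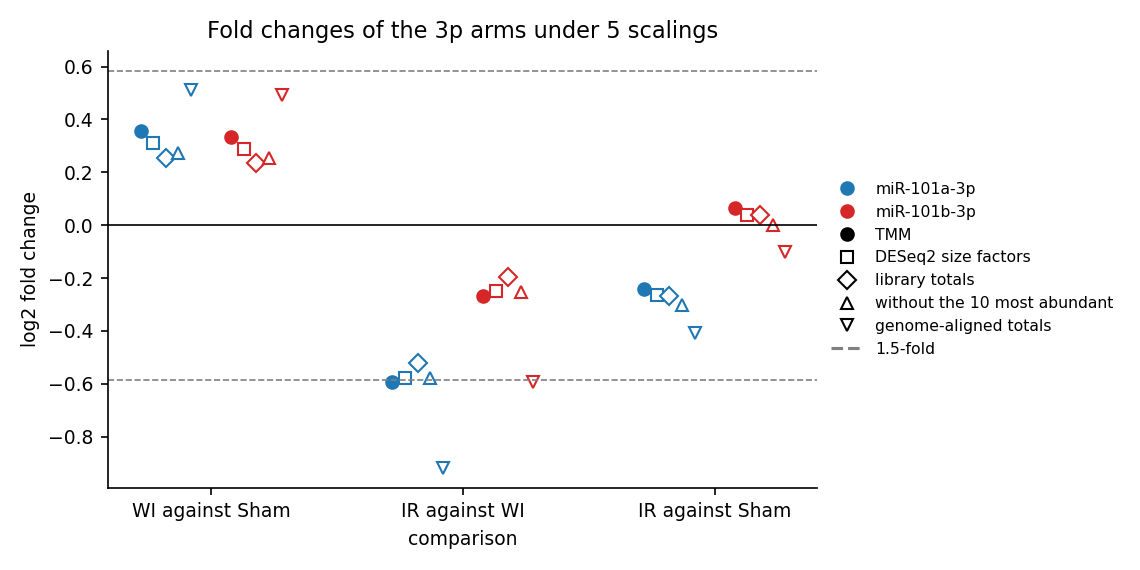
Log2 fold change (y axis) of miR-101a-3p and miR-101b-3p in the 3 comparisons (x axis) under 5 ways of scaling the libraries, with TMM as filled circles and dashed lines at 1.5-fold. Between WI and IR miR-101a-3p lies below miR-101b-3p under each scaling, and in IR against Sham miR-101b-3p lies on both sides of 0.

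The ratio of the paralogs needs no scaling, because both are counted in the same library. Of all 3p reads of the pair, miR-101a-3p held 37.4% (exact binomial 95% interval 37.0 to 37.9) in Sham. It held 37.8% (37.4 to 38.2) in WI, and 32.6% (32.2 to 33.1) in IR. Sham and WI overlapped, and IR was apart from both. The log2 ratio of miR-101a-3p to miR-101b-3p changed by 0.02 from Sham to WI (95% interval -0.02 to 0.06) and by -0.33 from WI to IR (-0.37 to -0.29). From Sham to IR the change was -0.31 (-0.35 to -0.26). These intervals hold the counting error of the reads alone. The study reported that a smaller part of the small RNA reads aligned to the genome for IR than for Sham or WI. Its bearing on these shares was not tested. Adding the miR-101c reads to miR-101a-3p gave shares of 37.6%, 38.0% and 32.8%.

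To place this shift, the same ratio was taken for every pair of microRNAs whose names differ only in a or b, with at least 100 reads of both in every library, which left 19 pairs. RefSeq held both sequences for 17 of them. Those of 1 pair, miR-199a-3p and miR-199b-3p, are identical, and its ratio was 2.03 in every library, so its change cannot be read as one between loci. From Sham to WI, miR-101 was at place 17 of 19 by size of change, where the median size was 0.15. From WI to IR it was at place 9, with a median size of 0.27 and a range from -0.64 (miR-15a-5p over miR-15b-5p) to 0.66 (miR-29a-3p over miR-29b-3p). Compared with Sham, IR put it at place 6 of 19. Without the miR-199 pair, a choice made after seeing the data, its places were 17, 9 and 6 of 18, and the median size from WI to IR was 0.30. The shift between the miR-101 paralogs after reperfusion was thus of a size that other paralog pairs also showed.

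**Figure D3:**
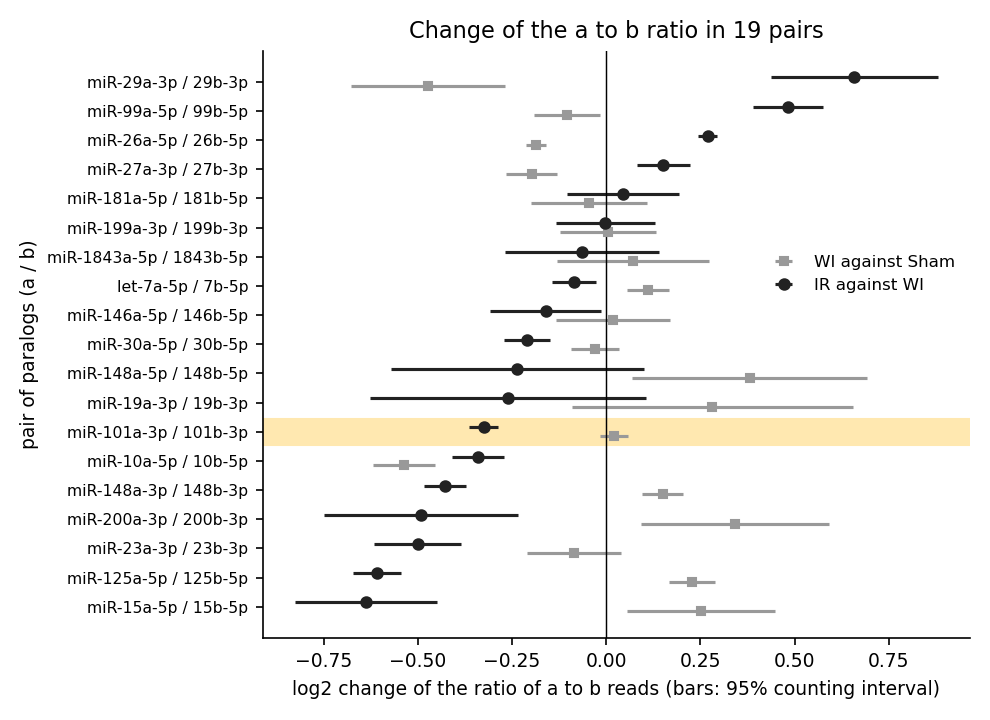
Change of the log2 ratio of the a to the b form (x axis) in 19 pairs of paralogs (y axis), ordered by the change from WI to IR (black circles), with the change from Sham to WI as grey squares and 95% counting intervals as bars; both forms of miR-199-3p have the same listed sequence. The miR-101 pair (shaded) stays near 0 from Sham to WI and moves to -0.33 from WI to IR, in the middle of the pairs by size.

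The 5p arms were rare. MiR-101a-5p was counted 46, 54 and 28 times in Sham, WI and IR, or at 11.6, 11.1 and 7.32 CPM. The WI library was not above Sham here, and IR had the lowest level. The counting intervals of the 3 libraries overlapped (8.50 to 15.5, 8.34 to 14.5 and 4.87 to 10.6 CPM). The ratio of IR to WI was 0.66 (exact 95% interval 0.402 to 1.06) and that of WI to Sham was 0.956 (0.633 to 1.45).

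MiR-101b-5p was counted 8, 9 and 1 times in Sham, WI and IR. The single IR read is under the smallest count that can be told from none. Its level in IR relative to WI was 0.141 (exact 95% interval 0.00323 to 1.02), and relative to Sham 0.129 (0.00292 to 0.966).

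The 5p arm made up 0.318% (0.233 to 0.423) of the miR-101a reads of Sham, 0.237% (0.178 to 0.309) of those of WI and 0.236% (0.157 to 0.342) of those of IR. A difference in arm use of miR-101a between the libraries was not detectable at this depth. For miR-101b the 5p share was 0.0331%, 0.0241% and 0.0041% in the same order, and the interval of IR (0.000104 to 0.0229) overlapped those of Sham (0.0143 to 0.0653) and WI (0.0110 to 0.0457).

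Over the 3 libraries together, the minor arm held 0.261% of miR-101a reads and 0.021% of miR-101b reads. Of 123 hairpins with both arms named and at least 100 reads in every library, 33 had a minor arm share as low as that of miR-101a or lower and 12 one as low as that of miR-101b. The median share was 1.73%.

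MiR-101c is listed separately, but its 19 letters are those of miR-101a-3p without the first and the last base. It had 97, 174 and 71 reads in Sham, WI and IR, or 24.5, 35.8 and 18.6 CPM, the same order of libraries as miR-101a-3p. It amounted to 0.667% of the summed reads of miR-101a-3p and miR-101c in Sham, 0.761% in WI and 0.597% in IR, with overlapping intervals (0.541 to 0.813, 0.652 to 0.882 and 0.467 to 0.753). Whether some reads were counted under both names was not tested.

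MiR-144-3p, whose seed differs from that of miR-101a-3p in its last base, did not follow the same order. It stood at 79.8 CPM in Sham, 107 CPM in WI and 123 CPM in IR, so that IR was the highest library. Other red blood cell microRNAs were also highest in IR. The 3 measured ones (miR-144-3p, miR-451a and miR-486-5p) summed to 4926, 4651 and 8824 CPM. Past 1.5-fold higher in IR than in Sham were 3 of 3, where 18.0% of the 449 microRNAs were. In IR against WI 2 of 3 were past it, against 18.9% of the 449, and miR-144-3p was not (log2 fold change 0.20). The 5 measured leukocyte microRNAs summed to 3094, 3054 and 2806 CPM, mostly from miR-142-5p (2735, 2672 and 2342 CPM). Of the 5, 1 (miR-223-3p) was past 1.5-fold higher in IR than in Sham, a share near the same 18.0%. The 5 did not share an order of libraries. MiR-142-3p was highest in WI (109.8, 152.1 and 118.7 CPM in Sham, WI and IR). MiR-150-5p (119.2, 104.4 and 95.45 CPM) and miR-155-5p (20.2, 16.65 and 14.38 CPM) were highest in Sham and lowest in IR, as was miR-142-5p. The part of such cells in the miR-101 levels was not tested.

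Hepatocytes are the main cells of the liver, and miR-122-5p is their best known microRNA. It had 15960, 19000 and 15360 CPM in Sham, WI and IR, and its log2 fold change was 0.25 from Sham to WI and -0.31 from WI to IR. Relative to miR-122-5p, miR-101b-3p changed by 0.08 from Sham to WI (95% interval 0.06 to 0.11) and by 0.04 from WI to IR (0.01 to 0.06). MiR-101a-3p changed by 0.10 (0.07 to 0.14) and -0.29 (-0.32 to -0.25) relative to the same microRNA. From WI to IR, miR-101b-3p thus moved with miR-122-5p to within 0.04, and miR-101a-3p was lower against it. Against miR-192-5p the changes were larger. They were 0.27 from Sham to WI and -0.47 from WI to IR for miR-101a-3p, and 0.25 and -0.15 for miR-101b-3p. The third hepatocyte microRNA, miR-194-5p, had 7131, 6908 and 6761 CPM, with log2 fold changes of -0.05 from Sham to WI and -0.03 from WI to IR. The rise and fall of miR-122-5p was therefore not shared by the whole list.

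The pattern over the libraries was compared with that of other microRNAs through the log2 fold changes from Sham to WI and from WI to IR. Both use the WI library, so a high WI count gives a rise and a fall at once. Of the 187 microRNAs with at least 100 reads in every library, 79 (42.2%) were higher in WI than in Sham and lower in IR than in WI. The opposite order was found for 50 (26.7%). At least the rise and at least the fall of miR-101b-3p were seen in 11 (5.88%), itself and miR-101a-3p included.

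Closest to miR-101a-3p, by Euclidean distance in these 2 values, was miR-34a-5p, a microRNA induced by p53, with 135, 214 and 112 reads in Sham, WI and IR (distance 0.015). Next came let-7a-1-3p and let-7c-2-3p (0.034 and 0.035), which have identical listed sequences and 155, 248 and 131 against 155, 247 and 131 reads. Then followed miR-148a-5p (0.095), with log2 fold changes of 0.45 and -0.62, and miR-450a-5p (0.150). MiR-101b-3p was at place 23 (0.326). The counting SE of the log2 fold changes of miR-34a-5p was 0.159 from Sham to WI and 0.168 from WI to IR, well above its distance, and the SEs of let-7a-1-3p, let-7c-2-3p and miR-450a-5p (0.148 to 0.176) also exceeded their distances. The order of these neighbours is therefore not resolved at this depth.

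Closest to miR-101b-3p were miR-19a-3p (0.060), and miR-122-5p (0.091). MiR-29c-3p (0.097), let-7d-5p (0.109) and miR-30e-3p (0.112) came after them. MiR-101a-3p was at place 57. With 104, 162 and 110 reads, miR-19a-3p had SEs of 0.181 and 0.178, so its first place is not resolved either. Each likeness rests on 3 libraries.

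**Figure D4:**
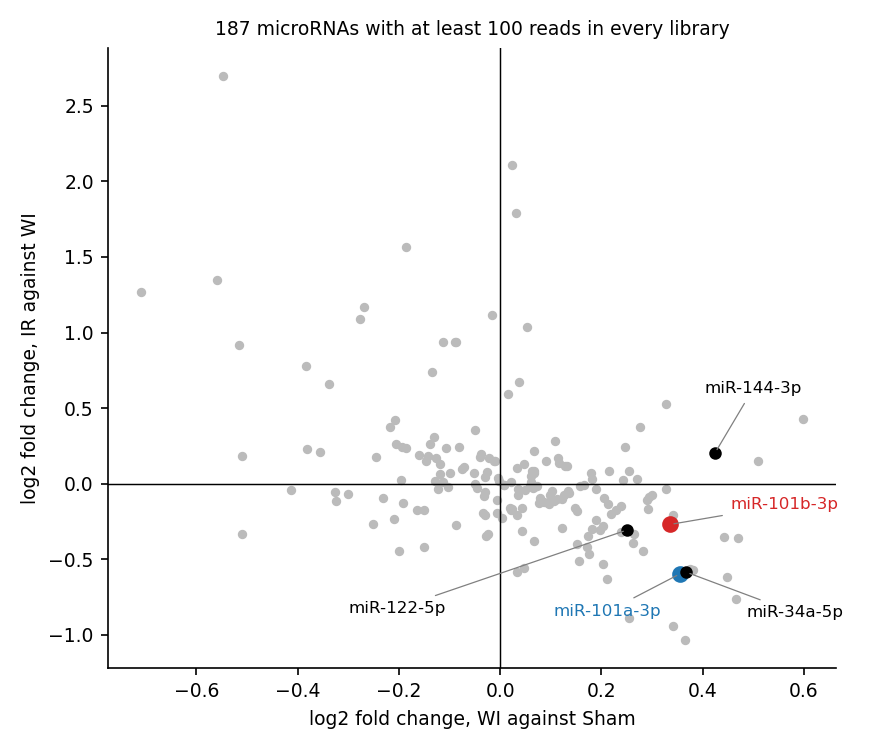
Log2 fold change from Sham to WI (x axis) and from WI to IR (y axis) for 187 microRNAs with at least 100 reads in every library, each point 1 microRNA; the axes share the WI library. MiR-101a-3p (blue, 0.36 and -0.60) lies beside miR-34a-5p, and miR-101b-3p (red, 0.34 and -0.27) lies near miR-122-5p.

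Other microRNAs known from earlier work to repress Ezh2 were examined as a list of 6. From Sham to WI 1 was past 1.5-fold higher and 0 lower, against 10.5% and 8.46% of the 449 microRNAs. From WI to IR 1 was higher and 1 lower, against 18.9% and 16.0%. From Sham to IR 1 was higher and 0 lower, against 18.0% and 9.8%. A single call of 6 is near these shares. The calls came from miR-138-5p (3, 9 and 3 reads in Sham, WI and IR) and miR-124-3p (0, 0 and 4 reads). MiR-26b-5p had 6333, 7600 and 5780 CPM, and its log2 fold change was 0.26 from Sham to WI and -0.40 from WI to IR. MiR-26a-5p, which was more abundant, had log2 fold changes of 0.08 and -0.13, and those of miR-98-5p were 0.24 and -0.15. MiR-214-3p, with 159, 169 and 178 reads in Sham, WI and IR, had the opposite order, with log2 fold changes of -0.21 (SE 0.159) from Sham to WI and 0.42 (SE 0.155) from WI to IR. For the members with reads in both libraries the median log2 fold change was 0.24 from Sham to WI, -0.15 from WI to IR and 0.05 from Sham to IR, where it was 0.04, -0.03 and 0.02 over the 449 microRNAs.

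The shifted seeds read slightly different letters in a target. The match to bases 2 to 8 of miR-101a-3p is GTACTGT and that to bases 2 to 8 of the listed miR-101b-3p is TACTGTA, and the overlapping GTACTGTA holds both. On the transcript strand, 8.61% of the 19856 annotated mouse 3′ untranslated regions (UTRs, the longest per gene) held GTACTGT, 11.0% held TACTGTA and 2.63% held GTACTGTA. Of 5 genes known as miR-101 targets from earlier work, Fos, Ptgs2 and Dusp1 held the overlapping match 1 time each. Mcl1 held TACTGTA alone, and neither was in the longest annotated 3′ UTR of Ezh2 (507 bases). Other annotated 3′ UTRs of a gene were not searched, so this does not show that Ezh2 lacks a match. Windows around the matches are shown with GTACTGT in capitals, because both 3p products pair with these letters.
Fos: atagctatatccatGTACTGTagtc
Ptgs2: cattatcagctgagGTACTGTatat
Dusp1: aattttgtgtttgcGTACTGTacta

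In mm9 these windows lie at chr12:86817929-86817953 (plus strand), chr1:151954517-151954541 (plus strand) and chr17:26642734-26642758 (minus strand). They are matches of letters, and the levels of these messenger RNAs were not analysed here.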

How the data were processed

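Small RNA of Sham, WI and IR livers was sequenced, 1 library per group, and groups follow the titles in the labels. The authors deposited unnormalized read counts for each mature microRNA. Per the methods of the study, the authors trimmed adaptors, kept reads of 15 to 30 bases, and aligned them with Bowtie 0.12.7 (1 mismatch, best stratum, at most 5 positions). HTSeq assigned RNA classes without strand, and miRDeep2 counted mature microRNAs. The methods name mm9 for these reads, and the submitters' processing notes name mm10 with no role. Reads that fit both paralogs, and PCR copies, could not be separated.

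Counts were scaled with TMM (edgeR 4.0.16, R 4.3.3), and log2 fold changes were taken on CPM + 0.1, with standard errors from the read counts. With no replicates, the quasi-likelihood test was not run. Fold changes beyond 1.5-fold were counted over microRNAs whose reads in the 3 libraries summed to at least 10. Intervals are exact Poisson or exact binomial (Clopper-Pearson, scipy 1.17.1). The calculation was tested on simulated data. Positions are from the GENCODE annotation of NCBIM37. RefSeq held a mature sequence for 1603 of the 1908 listed names.

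MicroRNAs named in the text are the members, miR-101c, fixed lists (seed neighbour, Ezh2 repressors, cell markers), and the 5 nearest patterns of each 3p product. Members and lists were chosen with earlier results of these data known. The 5 target genes, miR-192-5p as a reference beside miR-122-5p, and the paralog pairs at the ends of the range were named after values had been seen. Of the endothelial marker, miR-126a-3p, the level was 2956, 2951 and 2985 CPM in Sham, WI and IR, and the 3 hepatocyte microRNAs summed to 27.4%, 27.3% and 26.2% of reads. Alternatives changed the scaling (DESeq2 1.42.0 and others), the pseudocount, the depth, the read minimum and the fold threshold.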

Additional observations from a re-analysis of the deposited data

How the results depend on the processing

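No paired analysis was possible because each group has 1 library, and leaving out a replicate could not be done for the same reason. The 5p arms, the arm shares and the share of miR-101a-3p moved by less than their counting intervals in every alternative run on them, and so did the 3p fold changes with another pseudocount or at equal depth. The scaling mattered more. For miR-101a-3p in WI against Sham the log2 fold change was 0.31 (DESeq2 size factors), 0.26 (library totals), 0.27 (without the 10 most abundant) and 0.51 (genome-aligned totals), and for miR-101b-3p 0.29, 0.23, 0.25 and 0.49. In IR against WI it was -0.52 and -0.92 for miR-101a-3p with library and genome-aligned totals, and -0.20 and -0.59 (past 1.5-fold) for miR-101b-3p. In IR against Sham it was -0.30 and -0.41 for miR-101a-3p without the 10 most abundant and with genome-aligned totals, and for miR-101b-3p 0.039, 0.037, 0.001 and -0.10 in the order given first. Genome-aligned totals moved the median of the 449 microRNAs to 0.19 from Sham to WI, -0.34 from WI to IR and -0.15 from Sham to IR, where TMM kept it within 0.04 of 0. The counts past the threshold (47 higher and 38 lower, 85 and 72, 81 and 44) followed the read minimum and threshold by construction. They were 194 and 163, 226 and 199, 231 and 165 with 1 read, 13 and 7, 36 and 24, 36 and 13 with 100 reads, and 26 and 12, 55 and 29, 45 and 20 above 2-fold. With 1 read as the minimum, requiring also a Fisher's exact p under 0.01, the second criterion of the study, left 11 and 4, 49 and 24, 44 and 11. The study reported more microRNAs for WI against Sham and for IR against Sham, so its counts were not reproduced here. The balance of higher to lower turned with the scaling. For WI against Sham it was 36 to 56 with library totals, 42 to 55 without the 10 most abundant and 66 to 22 with genome-aligned totals. Genome-aligned totals gave 60 to 127 for IR against WI and 63 to 65 for IR against Sham. With 20 reads as the minimum for a pair of paralogs, miR-101 was at place 12 of 27 in IR against Sham.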
